A study of Rattus norvegicus with 6 samples.

Results

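Nr3c1 (ENSRNOG00000014096), Nr3c2 (ENSRNOG00000034007), Fkbp5 (ENSRNOG00000022523) and Hsd11b1 (ENSRNOG00000005861) were taken by symbol from the 25629 genes of the nucleus accumbens count tables, 4 genes in all. They were chosen by their levels over classes of nuclei and the Fkbp5 difference between naloxone and saline libraries in these data, so their levels over classes and their values between those groups are given as a description, without a test. The tissue came from adult male and female Sprague-Dawley rats, 90 to 120 days old, that had self-administered heroin. Each response was rewarded for 7 days (a fixed ratio of 1), every 3 responses for 4 days, a progressive ratio was run on day 12, and the ratio of 3 returned on days 13 and 14. The rats then received saline (libraries 1, 2 and 3) or naloxone, an opioid receptor antagonist (libraries 4, 5 and 6), and were killed 1 h later. Both groups therefore share the heroin history, rats without heroin were not analysed here, and the naloxone dose is not given in the sources used here. Bilateral punches of 12 rats, 6 of each sex, were pooled into 6 libraries, and the labels do not say how the rats were divided between libraries. Every library held nuclei of both sexes.

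Corticosterone, the main glucocorticoid of the rat, acts in the brain through a pair of nuclear receptors. Nr3c2 encodes the mineralocorticoid receptor, which binds it with high affinity, and Nr3c1 encodes the glucocorticoid receptor, which binds it with lower affinity and is engaged as hormone rises under stress. Both wait in a complex with Hsp90 and its co-chaperones, and after binding hormone they move to the nucleus and regulate transcription. Fkbp5 encodes an Hsp90 co-chaperone that is itself a target of the glucocorticoid receptor and lowers the affinity of the receptor for hormone, a short feedback loop. Hsd11b1 encodes the enzyme that regenerates active corticosterone from its inactive keto form inside cells.

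The sequence just upstream of the RefSeq start of Fkbp5 is shown because Fkbp5 is the member whose level differed most between the groups. The 250 bases lie on the minus strand of GRCr8 at chr20:6543556-6543805, a build other than the mRatBN7.2 named in the submitters' processing notes, and capitals mark a CCAAT box.
Fkbp5 upstream: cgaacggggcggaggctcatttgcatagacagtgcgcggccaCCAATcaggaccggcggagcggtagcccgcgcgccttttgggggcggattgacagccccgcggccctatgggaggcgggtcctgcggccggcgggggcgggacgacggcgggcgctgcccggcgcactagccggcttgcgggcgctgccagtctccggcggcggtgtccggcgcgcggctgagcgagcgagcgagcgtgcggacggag

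GC made up 76% of this window, against a median of 51.2% over the 33469 upstream windows of the same length in the table. On both strands CCAAT occurred in 34% of all windows and 1 time in this window. The half-site of the glucocorticoid response element, AGAACA, occurred in 17.5% of windows, and the full palindrome, AGAACA and TGTTCT with any 3 bases between them, in 0.012%. Neither was present in these 250 bases, which says only that those letters are not in this window.

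The 6 libraries held 64260 barcodes, against 44592 nuclei stated in the labels, and 58960 nuclei remained after filters on genes, mitochondrial share and doublets. Their totals ran from 55739350 to 76272798 unique molecular identifiers (UMIs), with medians of 4208 to 6418 UMIs per nucleus. Library 5 (naloxone) stood apart, with a median mitochondrial share of 0.568% against 0.154% to 0.345% in the others, and results are given with and without it where it matters. Pairs of libraries shared between 19 and 45 barcodes. Nuclei were clustered without the 4 genes and without the lists used later, and 21 of 53 clusters, with 40593 nuclei, could be named from marker genes in 14 classes. Levels are given as CPM, the UMIs of a gene per 1000000 UMIs summed over all nuclei of a class in a library, and a library is the unit of replication. Nothing in the labels says that a library is a single animal, so p-values measure the spread between pools. Fewer nuclei with a transcript and less transcript per nucleus cannot be told apart in such sums.

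Nr3c1 was highest in endothelial-like and most glial nuclei and lowest in interneurons. Endothelial-like nuclei, of which there were 315, averaged 662 ± 156 CPM (SD, n = 6 libraries). Astrocyte-like nuclei followed with 639, 595 and 608 CPM in the saline libraries 1 to 3 and 595, 468 and 553 in the naloxone libraries 4 to 6. The highest naloxone library and the lowest saline library of the astrocyte-like class both rounded to 595 CPM, and library 5 was the lowest. Oligodendrocyte-like nuclei averaged 542 ± 54.3, microglia-like nuclei 449.9 ± 73.4, oligodendrocyte precursor-like nuclei 332 ± 45.1 and differentiating oligodendrocyte-like nuclei 267 ± 59.1 CPM. The spiny projection neurons, the main output cells of the accumbens, formed a lower step: 215 ± 23.7 CPM in Drd2, 210.0 ± 25.7 in Drd1 and 138 ± 17.9 in Grm8 spiny neuron-like nuclei. Mural-like nuclei (371 ± 140.1) and ependymal-like nuclei (196 ± 75.1), each with fewer than 20 nuclei in a library, fell between microglia-like and precursor-like and between Drd1 and Grm8 nuclei. The lowest levels were in other GABA interneuron-like (120.1 ± 22.4), cholinergic interneuron-like (49.9 ± 13) and somatostatin interneuron-like nuclei (35 ± 10.8).

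The steps between neighbours among the 12 classes with at least 20 nuclei in every library are given as log2 differences within a library, with the SD over 6 libraries. Nr3c1 was higher in astrocyte-like than in oligodendrocyte-like nuclei by 0.09 ± 0.06, in these than in microglia-like nuclei by 0.28 ± 0.13, and in microglia-like than in precursor-like nuclei by 0.44 ± 0.12. Drd1 exceeded Grm8 spiny neuron-like nuclei by 0.60 ± 0.06, Grm8 exceeded other GABA interneuron-like nuclei by 0.21 ± 0.09, and these exceeded cholinergic interneuron-like nuclei by 1.28 ± 0.33. Each of these 6 steps went the same way in 6 of 6 libraries, as did cholinergic over somatostatin interneuron-like nuclei, whose difference of 0.51 ± 0.52 was no larger than its SD. Endothelial-like and astrocyte-like nuclei (0.19 ± 0.22) and Drd2 and Drd1 nuclei (0.04 ± 0.04) kept their order in 4 of 6 libraries and did not differ beyond their spread. The differentiating class stood below the precursor-like class (0.32 ± 0.30) and above Drd2 nuclei (0.30 ± 0.37) in 5 of 6 libraries each, about as much as the spread.

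Nr3c2 had another distribution, high in endothelial-like nuclei, astrocytes and spiny neurons and low in the oligodendrocyte lineage and microglia. It averaged 509 ± 93.4 CPM in endothelial-like, 477 ± 207 in mural-like, 434 ± 45.2 in astrocyte-like, 409.8 ± 35 in Drd2, 382 ± 35.5 in Grm8 and 303 ± 25.8 in Drd1 spiny neuron-like nuclei (SD, n = 6). Other GABA interneuron-like nuclei reached 295 ± 23.2, ependymal-like nuclei 176 ± 48.6, somatostatin interneuron-like nuclei 161 ± 32.8 and oligodendrocyte-like nuclei 158 ± 16.4 CPM. The low end was held by precursor-like (118 ± 10.8), microglia-like (89.3 ± 30.4), cholinergic interneuron-like (84.1 ± 34.6) and differentiating oligodendrocyte-like nuclei (31.2 ± 16.9). Of the 11 steps between neighbours among the 12 larger classes, 5 went the same way in 6 of 6 libraries, among them Grm8 over Drd1 spiny neuron-like nuclei by 0.33 ± 0.08 and oligodendrocyte-like over precursor-like nuclei by 0.42 ± 0.14. Drd1 and other GABA interneuron-like nuclei (0.04 ± 0.08) and somatostatin interneuron-like and oligodendrocyte-like nuclei (0.02 ± 0.29) did not differ beyond their spread.

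**Figure D1:**
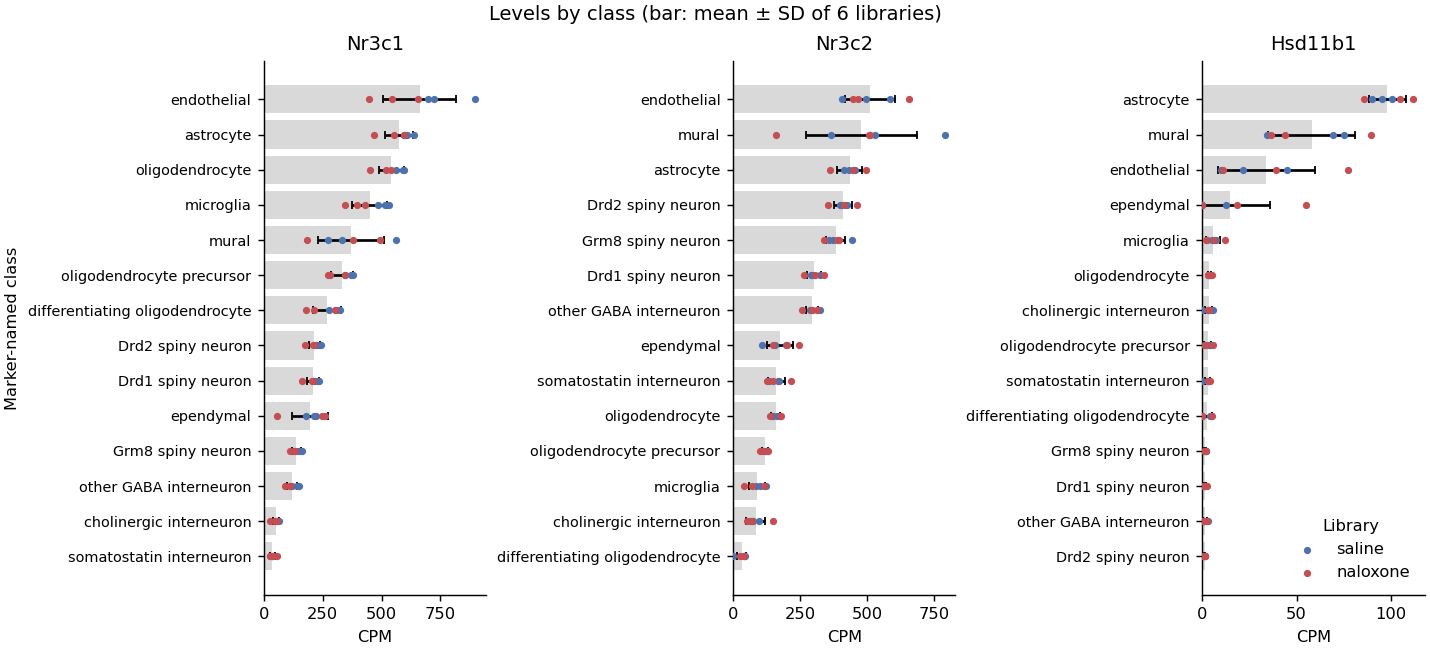
Levels of Nr3c1, Nr3c2 and Hsd11b1 (CPM, horizontal axes) in each named class, ordered by level, with bars for the mean and whiskers for the SD of 6 libraries and a point per library, coloured by treatment. Nr3c1 falls from 662 CPM in endothelial-like to 35 CPM in somatostatin interneuron-like nuclei, and Hsd11b1 is highest in the astrocyte-like class.

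The balance between the receptors also differed between glia and neurons. The log2 ratio of Nr3c1 to Nr3c2 is compared only between classes, and its size within a class is not read. It was 3.43 ± 1.77 in differentiating oligodendrocyte-like, 2.38 ± 0.41 in microglia-like, 1.78 ± 0.18 in oligodendrocyte-like and 1.48 ± 0.20 in precursor-like nuclei (SD, n = 6). Over libraries the differentiating class ran from 2.39 to 7.03 and overlapped the microglia-like class (1.88 to 2.99). It held only 49 Nr3c2 UMIs, with 0 in saline library 1. Astrocyte-like nuclei (0.41 ± 0.14) and endothelial-like nuclei (0.36 ± 0.42) lay between those glia and the neurons. The ratio was -0.53 ± 0.15 in Drd1, -0.93 ± 0.13 in Drd2, -1.47 ± 0.14 in Grm8 spiny neuron-like and -2.21 ± 0.56 in somatostatin interneuron-like nuclei.

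Hsd11b1 was largely an astrocyte transcript. Its level in astrocyte-like nuclei was 95.2, 90.2 and 100.4 CPM in the saline libraries and 85.6, 112 and 105 in the naloxone libraries, and the groups overlapped. Mural-like nuclei had 58 ± 23 and endothelial-like nuclei 33.9 ± 25.7 CPM (SD, n = 6), from only 21 and 19 UMIs. Microglia-like nuclei had 5.68 CPM and every neuronal and oligodendrocyte lineage class between 1.17 and 3.75. An Hsd11b1 UMI was found in 20.5% of astrocyte-like nuclei at a median of 2624 UMIs per nucleus, against 1.1% of Drd2 spiny neuron-like nuclei at a median of 8472, and after thinning each nucleus to 1000 UMIs in 8.73% against 0.154%.

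Fkbp5 was higher after naloxone in glia, by several fold, and differed less in neurons. In microglia-like nuclei it was 134, 147 and 129.8 CPM in the saline libraries and 579, 927 and 522 in the naloxone libraries, a fitted log2 difference of 2.30 (SE 0.21). In astrocyte-like nuclei it was 17.1, 19.9 and 23.7 against 77.2, 269 and 94.3 CPM, a log2 difference of 2.85 (SE 0.39). The groups did not overlap in either class, and library 5 was the highest in both. In oligodendrocyte-like nuclei it was 49.2, 48.2 and 43.5 against 121, 315 and 132 CPM (log2 difference 1.98, SE 0.28). In precursor-like nuclei it was 10.3, 19.6 and 18.1 against 47.7, 93 and 44.4 CPM (log2 difference 1.85, SE 0.27). Again every naloxone library lay above every saline library, with library 5 well above the other naloxone libraries in the mature oligodendrocytes. Without library 5 the log2 differences were 2.01 in microglia-like, 2.12 in astrocyte-like, 1.46 in oligodendrocyte-like and 1.49 in precursor-like nuclei. As ratios of group means the astrocyte-like difference fell from 7.27 to 4.24 and the oligodendrocyte-like from 4.03 to 2.69 without it.

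The neurons differed less. Drd2 spiny neuron-like nuclei had 50.6, 44.5 and 43 CPM of Fkbp5 in the saline libraries and 59.7, 80.9 and 58 in the naloxone libraries (log2 difference 0.55, SE 0.12). These groups did not overlap, whereas those of Drd1 nuclei did, with 42.3, 41.7 and 40.6 against 37.8, 60.5 and 48.5 CPM (0.24, SE 0.12). Grm8 spiny neuron-like nuclei had 35.2, 34.7 and 37.1 against 32.7, 56.5 and 36.5 CPM (0.24, SE 0.15), and without library 5 that difference was -0.01. Both neuron classes pooled clusters at different levels: in the largest Drd1 cluster the groups did not overlap (31.1, 31.8 and 33.7 against 35.8, 48.8 and 42.3 CPM). They overlapped in the Drd1 clusters led by Ebf1 (38.8, 38.4 and 31.2 against 28.5, 49.5 and 41) and Ckmt2 (78.5, 67.1 and 62.2 against 60.4, 102 and 79.8). In the smaller Grm8 cluster the groups did not overlap, with 55.5, 54 and 53.3 against 57.5, 82.7 and 62 CPM, beside a larger one that averaged 24 CPM after saline and overlapped. Over the whole classes, 8.7% of all genes in Drd1 and 7.69% in Grm8 nuclei lay wholly above. The shares within the single clusters are not given here, so nothing is read from their lack of overlap. The smaller cluster held 241 of 729 Grm8 nuclei in saline library 1 and 143 of 757 in naloxone library 4. Other GABA interneuron-like nuclei had 21.9, 23.3 and 9.46 against 26.3, 23.7 and 28.1 CPM (0.52, SE 0.29), from 10 to 33 UMIs per library. Somatostatin interneuron-like nuclei differed by 0.17 (SE 0.24), and Fkbp5 was too low to be fitted in the cholinergic, differentiating oligodendrocyte and endothelial classes.

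Over the 12 classes with at least 20 nuclei in every library, the naloxone libraries lay wholly above the saline libraries in 6 and wholly below in 0. The same was true of 6.99% of all genes over those classes (6.42% in astrocyte-like, 8.84% in oligodendrocyte-like, 5.86% in microglia-like, 6.2% in precursor-like, 7.77% in Drd2 and 6.31% in other GABA interneuron-like nuclei). Since these groups entered the choice of Fkbp5, nothing is read from that comparison. The share of nuclei with an Fkbp5 UMI was 16.5% after saline and 49.3% after naloxone in microglia-like, 4.85% and 23.1% in astrocyte-like, 7.55% and 23.3% in oligodendrocyte-like nuclei, against 2.36% and 7.69% in the differentiating class at a median of 4228 UMIs per nucleus and 6.29% and 6.57% in the endothelial-like class at 1246. With every nucleus thinned to 1000 UMIs the shares were 14.8% ± 1.43 and 43.7% ± 11.7 in microglia-like, 1.91% ± 0.238 and 11.5% ± 7.7 in astrocyte-like and 4.52% ± 0.402 and 15.8% ± 8.34 in oligodendrocyte-like nuclei (SD, n = 3 libraries). Thinning left out 31.7% of the microglia-like, 4.9% of the astrocyte-like and 16.2% of the oligodendrocyte-like nuclei as too shallow.

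**Figure D2:**
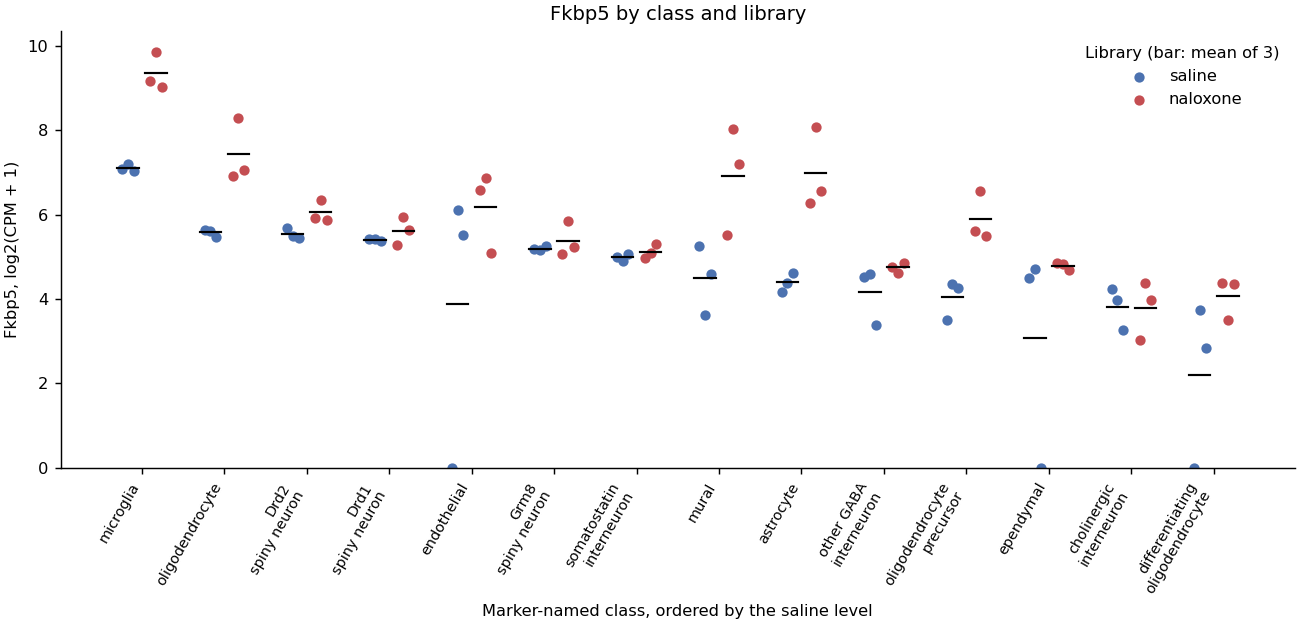
Fkbp5 level, as log2(CPM + 1), in each named class, with 1 point per library and a short bar for the mean of 3 libraries on that scale. In microglia-like nuclei the saline libraries sit between 129.8 and 147 CPM and the naloxone libraries between 522 and 927.

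Markers of microglia, the class with the most Fkbp5, were higher after naloxone at a low level in astrocyte-like and precursor-like nuclei. Their 7 genes, none at 0, summed to 30.9 to 39.7 CPM in the saline and 43 to 51.3 CPM in the naloxone libraries of the astrocyte-like class. The sums were 16.1 to 36.3 and 37.5 to 50.5 CPM in the precursor-like class. They overlapped in the oligodendrocyte-like class, at 28.9 to 46.5 and 38.3 to 63.6 CPM. In microglia-like nuclei the same genes summed to 4798 to 5091 CPM after saline and 5621 to 6404 after naloxone. Their part in the Fkbp5 values was not tested. The oligodendrocyte-like class was also built from different clusters in the groups: a cluster led by Gpd1 held 0.59% to 2.82% of it in the saline and 32.2% to 52.7% in the naloxone libraries, where by sex it held 4.88% of library 4 male and 6.84% of library 6 female nuclei and 54.9% to 64.2% of the other naloxone sums, against 0% to 6.7% in saline. In the largest of its other clusters Fkbp5 was 47.9, 47.9 and 47.4 CPM after saline and 91.6, 313 and 65.5 after naloxone. The part of the cluster make-up in the Fkbp5 difference of the class was not tested.

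The receptors themselves differed far less. Over all nuclei Nr3c1 was 258, 253 and 253 CPM in the saline and 238, 179.9 and 222 in the naloxone libraries, a log2 difference of -0.27 (SE 0.10). In microglia-like nuclei it was 532, 514 and 486 against 429.8, 343 and 395 CPM (-0.38, SE 0.14), and in oligodendrocyte-like nuclei 595, 559.8 and 592 against 518, 449 and 540.1 CPM (-0.22, SE 0.11). Every naloxone library was below every saline library in both classes, and library 5 was the lowest. The naloxone libraries lay wholly below the saline libraries in 8 of 12 classes, as did 8.97% of all genes over those classes (7.48% in microglia-like and 9.72% in oligodendrocyte-like nuclei). The fitted difference was negative in 11 of 12 classes, from -0.44 (SE 0.26) in endothelial-like to -0.15 (SE 0.10) in astrocyte-like nuclei. The exception was the somatostatin interneuron-like class, at 32.6, 34.5 and 24.1 against 54.3, 26.3 and 38.3 CPM (0.41, SE 0.28), where the groups overlapped. Nr3c2 overlapped between groups in 12 of 12 classes, with log2 differences from -0.48 to 0.27. Hsd11b1 overlapped in 12 of 12 as well, with differences from -0.51 to 0.64 in the 5 classes where it could be fitted.

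Classes with more Nr3c1 had larger Fkbp5 differences. Over the 9 classes in which Fkbp5 was fitted, 4 glial and 5 neuronal, the log2 level of Nr3c1 in saline libraries and the Fkbp5 difference had a Pearson r of 0.80 and a Spearman rho of 0.93. The same r was 0.75, 0.84 and 0.74 with the naloxone libraries 4, 5 and 6 taken singly. For Nr3c2 it was -0.32 (rho -0.12), for the ratio of Nr3c1 to Nr3c2 0.83 (rho 0.85), and for the saline level of Fkbp5 itself 0.10 (rho 0.18). Including the 3 classes with too few Fkbp5 UMIs to fit, the Nr3c1 relation over 12 classes was 0.79 (rho 0.83). The points share the same 6 libraries and fall into a glial and a neuronal group, the glia having fewer UMIs per nucleus, so these values describe the classes and carry no p.

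**Figure D3:**
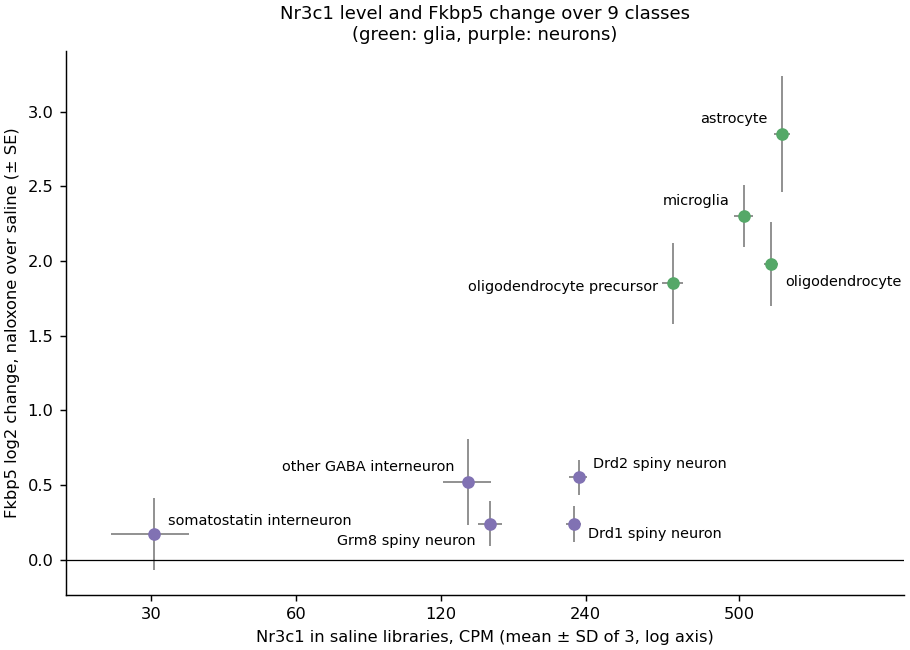
Fitted Fkbp5 log2 difference, naloxone over saline (vertical axis, bars show SE), against the mean Nr3c1 level in the 3 saline libraries (CPM, log axis, bars show SD) for the 9 classes fitted. The 4 glial classes lie at the upper right and the 5 neuronal classes at the lower left.

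Within classes no difference was detected, in a design too small to call a single class. Nuclei were divided by whether they held an Nr3c1 UMI, and Fkbp5 was compared between both sides in each library, for 11 classes. In microglia-like nuclei Fkbp5 was 145 CPM with and 129 without an Nr3c1 UMI after saline, and 688 and 679 after naloxone. Over the 6 libraries the log2 difference was 0.08 ± 0.21 in microglia-like, -0.08 ± 0.15 in oligodendrocyte-like, -0.05 ± 0.06 in Drd2 and -0.41 ± 0.38 in astrocyte-like nuclei (SD). In an exact two-sided sign-flip test over the 6 libraries, whose smallest p is 0.0312 before adjustment over 11 classes, the adjusted p ran from 0.516 to 0.969. In astrocyte-like nuclei 1 of 6 libraries was higher on the side with Nr3c1. A nucleus without an Nr3c1 UMI may still express the gene, so the division is a coarse measure of receptor level.

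Sorting the nuclei of each library by sex showed that Fkbp5 was not uniformly high after naloxone. Nuclei were called female by an Xist UMI without a Y-linked UMI and male by the reverse, and summed within each library. In astrocyte-like nuclei the female sums were 11.2, 19.7 and 7.06 CPM in saline and 125, 193 and 17.2 in naloxone libraries, and the male sums 26.6, 22.5 and 45.1 against 18.4, 344 and 145. The high naloxone sums were the female nuclei of library 4, both sexes of library 5 and the male nuclei of library 6. The male sum of library 4 (10 UMIs, 95% Poisson interval 8.82 to 33.8 CPM) and the female sum of library 6 (16 UMIs, 9.81 to 27.9) lay within the saline range, while male nuclei of library 6 had 145 CPM (123 to 171). These intervals cover counting error only.

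Against the saline sums of both sexes together, the same sums were high and low in oligodendrocyte-like and microglia-like nuclei. In oligodendrocyte-like nuclei the female sums were 28.1, 39.6 and 26 against 177, 237 and 50.1 CPM and the male sums 64.6, 49.7 and 64.8 against 45.6, 352 and 166. In microglia-like nuclei the female sums were 65.7, 83.7 and 51.6 against 770.0, 787 and 219 CPM and the male sums 117, 320.5 and 266 against 113, 968 and 718. In all 3 classes 4 of 6 naloxone sums exceeded the highest of the 6 saline sums, namely library 4 female, library 5 female and male, and library 6 male. Every male saline sum lay above every female saline sum in these classes. Against female saline sums alone, library 6 female was also higher in microglia-like (219 against at most 83.7) and oligodendrocyte-like nuclei (50.1 against at most 39.6). Library 4 male lay below every male saline sum in all 3 classes. In precursor-like nuclei, by contrast, all 6 naloxone sums (27.5 to 104 CPM) exceeded all saline sums (6.12 to 18.9). Drd2 spiny neuron-like nuclei had 6 of 6 between 51.5 and 82.5 CPM against 41.3 to 54.2, with only the female sum of library 6 inside the saline range.

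**Figure D4:**
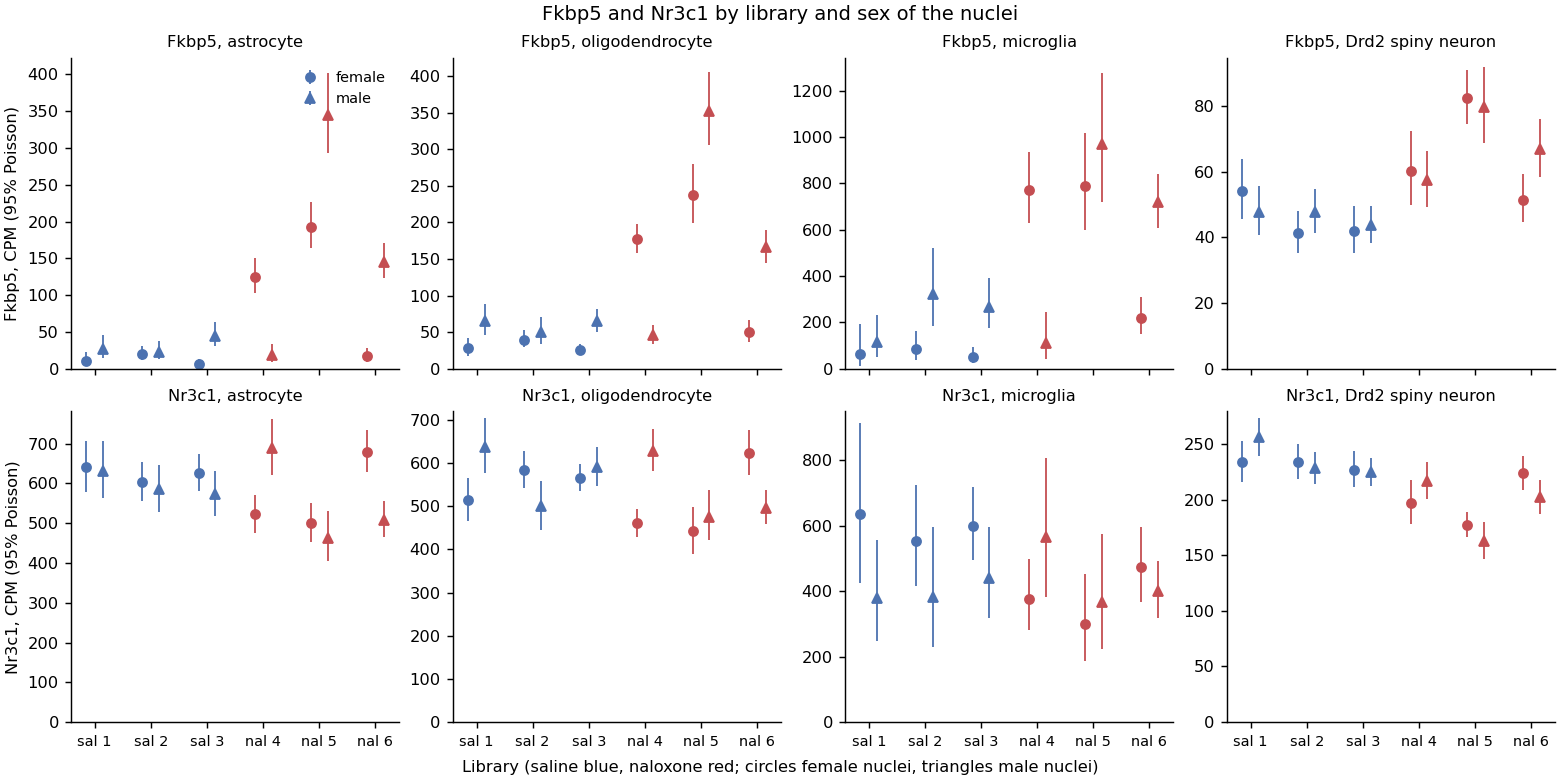
Fkbp5 and Nr3c1 levels (CPM) in the female and male nuclei of each library, for 3 glial classes and the Drd2 spiny neuron-like class, with 1 point per library and sex and bars for the 95% Poisson interval of the count. In astrocyte-like nuclei the male sum of library 4 (18.4 CPM) and the female sum of library 6 (17.2 CPM) lie within the saline range of 7.06 to 45.1.

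In astrocyte-like and oligodendrocyte-like nuclei Nr3c1 followed the same division in the opposite direction. In astrocyte-like nuclei it was 522, 499.6, 464 and 509 CPM in the 4 sums with high Fkbp5, below the saline range of 573 to 641, and 689.7 and 679.8 in the male sum of library 4 and the female sum of library 6, above it. In oligodendrocyte-like nuclei the same 4 sums (461, 442, 476 and 497 CPM) lay below the saline range of 500.2 to 638, and the other 2 within it. The same 4 were below the saline range in Drd1 nuclei, 3 of them (library 4 female and library 5 female and male) in microglia-like nuclei, and all 6 sums in Drd2 nuclei. Those were not the sums with high Fkbp5 in Drd1 nuclei. There Fkbp5 exceeded its saline range (35.2 to 45.2 CPM) in both sexes of libraries 5 and 6, and was 35.4 in library 4 female. Precursor-like nuclei were divided otherwise, with both sums of libraries 5 and 6 (264 to 283 CPM) below the saline minimum of 285 and library 4 at 319 and 390.5. These sums show which nuclei hold the values, and since the labels do not tie sex to an animal, whether a sum is 1 rat or several is not known.

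The high and low sums were spread over both sexes, and sex itself gave no call with all libraries. In edgeR's quasi-likelihood test with library as a block, female over male differed for 0 of 34 member and class pairs with Benjamini-Hochberg adjustment, 3 had an unadjusted p under 0.05, and DESeq2 called 0 of 47, while edgeR called 0.11% of all genes over the same fits. Fkbp5 over all nuclei differed by -0.18 (SE 0.15, edgeR adjusted p = 0.745), in astrocyte-like nuclei by -0.79 (adjusted p = 0.766) and in oligodendrocyte-like nuclei by -0.44 (adjusted p = 0.905). This rested on library 4, since without it 3 pairs were called, all Fkbp5 lower in female nuclei: astrocyte-like -1.50 (edgeR adjusted p = 0.0406), microglia-like -1.31 (0.00404) and oligodendrocyte-like -1.03 (0.00591). The difference between sexes in the naloxone response was called for 0 of 34 pairs by edgeR (2 unadjusted under 0.05, 0 called by DESeq2, 0.00548% of all genes called), with the widest gap in microglia-like Fkbp5, 1.79 (SE 0.75, edgeR adjusted p = 0.999). That response, taken within a sex, was 3.17 (SE 0.43) in female and 1.43 (SE 0.40) in male microglia-like nuclei. The saline means differed, at 67 ± 16.1 CPM in female and 235 ± 105 in male nuclei (SD, n = 3). The naloxone means were close, at 592 ± 323 and 599.7 ± 439.7 CPM, the male mean including the low sum of library 4 (113).

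Other targets of the glucocorticoid receptor rose after naloxone in oligodendrocyte-like and astrocyte-like nuclei. Of a list of such targets, 10 of the 16 tested rose in oligodendrocyte-like nuclei at an adjusted p under 0.05 in edgeR and 0 fell, where 0.658% of all genes were called higher, and their median log2 difference was 1.27 against 0.00 for all genes. In astrocyte-like nuclei 8 of 17 rose (median 0.90, 0.719% of all genes called higher), in precursor-like nuclei 2 of 10 (0.41, 0.227%), in Drd1 1 of 16 (0.18, 0.0816%) and in Drd2 nuclei 1 of 15 (0.30, 0.502%). Microglia-like nuclei had 0 of 4 called by edgeR (median 0.67, 0.165%), 2 with an unadjusted p under 0.05, and Grm8 nuclei 0 of 15 (0.22, 0.0405%), 4 with an unadjusted p under 0.05, and DESeq2 called 0 in both. DESeq2 called 9 of these genes higher in oligodendrocyte-like, 4 in astrocyte-like and 2 each in precursor-like, Drd1 and Drd2 nuclei. With a library left out, edgeR called 7 to 11 in oligodendrocyte-like and 3 to 6 in astrocyte-like nuclei, the latter 3 without saline library 1 or 2. The list was put together with results of these libraries known, so its direction is not independent evidence.

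In oligodendrocyte-like nuclei the largest increases were Cdkn1a, an inhibitor of cyclin-dependent kinases (log2 difference 2.70, SE 0.31, edgeR adjusted p = 0.00147), Gpd1, an enzyme of glycerol phosphate metabolism (1.86, adjusted p = 0.00151), and Ddit4, an inhibitor of mTOR signalling (1.80, adjusted p = 0.00158). Cdkn1a was low, going from 2.27 ± 1.11 to 14.8 ± 1.08 CPM, while Gpd1 went from 163 ± 14.3 to 599.8 ± 259.8 CPM (SD, n = 3). In astrocyte-like nuclei Nfkbia, the inhibitor of NF-kB, rose by 1.63 (edgeR adjusted p = 0.0469), Errfi1, a feedback inhibitor of the EGF receptor, by 1.60 (adjusted p = 0.0112) and Pdk4, which restrains pyruvate oxidation, by 1.34 (adjusted p = 0.0038). Zbtb16, a zinc finger transcription factor, rose in precursor-like (1.46, edgeR adjusted p = 0.000963), Drd1 (1.42, adjusted p = 0.021) and Drd2 nuclei (1.26, adjusted p = 0.00367), and Errfi1 rose in precursor-like nuclei by 1.35 (adjusted p = 0.00237). By library and sex, several of these genes exceeded the saline range in 4 sums, namely library 4 female, library 5 female and male, and library 6 male. They were Pdk4 in astrocyte-like, Cdkn1a, Gpd1 and Ddit4 in oligodendrocyte-like, Zbtb16 and Errfi1 in precursor-like and Zbtb16 in Drd1 nuclei. Fkbp5 was high in those 4 sums in astrocyte-like, oligodendrocyte-like and microglia-like nuclei. Astrocyte Pdk4, for example, was 91.3, 62.3, 110.5 and 82.2 CPM in those sums and 29.4 and 23.6 in the male sum of library 4 and the female sum of library 6. Errfi1 in astrocyte-like nuclei exceeded the saline range in 6 of 6 sums and Nfkbia in 5. Fkbp5 itself was divided otherwise in 2 classes, exceeding it in 6 of 6 sums in precursor-like nuclei and in both sexes of libraries 5 and 6 in Drd1 nuclei. The listed genes were picked for called increases between the same libraries. The share of all genes divided in this way is not given here, so nothing is read from the match with Fkbp5.

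Genes of the chaperone complex that holds the receptors fell in 3 glial and 3 spiny neuron classes. This list too was chosen with results of these libraries known, so its direction is not independent evidence. Of 11 genes of that complex tested in oligodendrocyte-like nuclei 5 fell and 0 rose (median -0.69, 0.175% of all genes called lower), with Dnajb1 at -1.16 (edgeR adjusted p = 0.0292), Stip1 at -1.15 (adjusted p = 0.00406) and Dnaja1 at -0.96 (adjusted p = 0.00151). Called lower were also 2 in astrocyte-like (median -0.47, 0.191% of all genes), 2 in Drd1 (-0.43, 0.0816%), 3 in Drd2 (-0.30, 0.215%), 2 in Grm8 (0.0486%) and 1 in precursor-like nuclei (0.0619%). By edgeR 0 of 10 were called in microglia-like nuclei (3 with an unadjusted p under 0.05, 1 called by DESeq2), 0 of 7 in differentiating oligodendrocyte-like nuclei (1 unadjusted, 0 by DESeq2), and by either tool 0 in the endothelial-like (1 unadjusted), cholinergic (4), other GABA (5) and somatostatin interneuron-like nuclei (6). Dnajb1 and Dnaja1 are Hsp40 co-chaperones and Stip1 links Hsp70 to Hsp90. In astrocyte-like nuclei Fkbp4, the Hsp90 co-chaperone that competes with the Fkbp5 protein, fell by 1.22 (edgeR adjusted p = 0.0345) and Dnaja1 by 0.88 (adjusted p = 0.0038). In Drd1 nuclei Dnaja1 and Hsp90aa1, the inducible Hsp90, each fell by 0.53 (edgeR adjusted p = 0.0435 and 0.021), in Grm8 nuclei they fell by 0.63 and 0.52, and in precursor-like nuclei Stip1 fell by 0.99 (adjusted p = 0.0074). In Drd2 nuclei Dnaja1, Stip1 and Hsp90aa1 fell by 0.50, 0.47 and 0.46 (edgeR adjusted p = 0.0203, 0.047 and 0.0176), and 0 genes of the complex were called there when any saline library was left out. By library and sex, Dnaja1 in astrocyte-like, oligodendrocyte-like and Drd1 nuclei, and Stip1 in oligodendrocyte-like and precursor-like nuclei, lay below the saline range in 6 of 6 library and sex sums. They were picked for called decreases between the same libraries, so nothing is read from that count. With any library left out, 3 to 6 genes of the complex were called lower in oligodendrocyte-like and 1 to 5 in astrocyte-like nuclei, the latter 5 without naloxone library 5. Genes of steroid handling and receptor coregulators had 0 calls in every class by edgeR, with an unadjusted p under 0.05 in 2 of 18 and 7 of 105 tests, and 0 calls by DESeq2.

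Genes with a distribution most like each member were found by Spearman's rho of the mean level over the 14 classes, among 10128 genes. For Nr3c1 they were Son (0.94), Ppp2r5a (0.93) and Echdc1 (0.93), and for Nr3c2 they included Mprip (0.93) and Mtcl1 (0.87). For Fkbp5 they were Acap2 (0.96), Adgre1 (0.92) and Abraxas2 (0.91), and for Hsd11b1 Gna13, Nme2 and Fam107a (0.93 each). The 14 classes share the same libraries and differ in depth, so the values rank genes and describe nothing beyond these classes.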

How the data were processed

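The authors deposited UMI counts per gene and nucleus for each library, made with 10x 3' chemistry and, per the submitters' processing notes, Cell Ranger 9.0.1 on mRatBN7.2 (Seurat 5.2.1 and R 4.4.0 are also named there). Filters were a minimum of 500 genes and a mitochondrial share of 5% or less, doublets (2649, 4.3%) were removed by similarity to simulated pairs at 0.4% per 1000 nuclei, and the rest were clustered (3000 variable genes, 40 components, 15 neighbours, Leiden resolution 1.0, leidenalg 0.10.2) without members or listed genes. Nuclei with UMIs of both sexes made up 37.6% of the doublets and 3.2% of the named clusters. Counts were summed per class and library.

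Naloxone was compared with saline by edgeR 4.0.16 (quasi-likelihood, TMM, filtered on low counts, Benjamini-Hochberg, threshold 0.05, no covariate), tested on simulated data. Nuclei with and without an Nr3c1 UMI were compared by exact sign-flip tests (scipy 1.17.1). The same test, planned and run for levels between classes, is not given because those levels entered the choice of genes. DESeq2 1.42.0, other filters, factors, resolutions, gating nuclei singly and leaving out libraries were alternatives. The members, lists and rules were chosen with earlier results of these data known. Named genes are the members, per class at most the 3 largest called increases and decreases of each list, and the 3 genes most alike each member. Some results chosen by these rules are not reported here.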

Additional observations from a re-analysis of the deposited data

Results flagged for a closer look

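Nuclei in 32 unnamed clusters (18367 nuclei) and the thinly filled mural-like class entered no comparison above, and Fkbp5 was higher after naloxone in many of them. Of 20 unnamed clusters with at least 20 nuclei in every library, 12 had every naloxone library above every saline library and 0 had the reverse. In the 12 larger named classes 6.99% of all genes lay wholly above, and the share within these unnamed clusters is not given here. Since these groups entered the choice of Fkbp5, nothing is read from that count. In 5 of the 12, those led by Gldc, Slc1a2 and Opalin and both led by Arhgap15, between 11% and 72.5% of nuclei carried transcripts of both sexes, against 3.2% in the named clusters and they were left unnamed for that reason. The part of mixed nuclei in their Fkbp5 values was not tested. The widest gaps in mean level were in a cluster led by Gldc, 179.6 CPM after naloxone against 9.88 after saline, one led by Smoc2, 124 against 25.8, and cluster 21 led by Arhgap15, 137 against 57.7. Cluster 11, also led by Arhgap15, had 90.9 against 42.3 CPM, the cluster led by Slc1a2 80.7 against 36.2, that led by Opalin 77.5 against 39.8 and that led by Ano2 64.2 against 38.9. Smaller gaps were seen in clusters led by Col6a2 (60.2 against 30.8 CPM), Dcdc1-ps1 (49 against 25.3), Cdh23 (38.8 against 25.2), Bnc2 (36.7 against 20.9) and Tafa4 (24.3 against 16.7). Mural-like nuclei, with 211 in all, had 37.6, 11.4 and 23 CPM after saline and 44.8, 262 and 146 after naloxone, means of 24 and 151 CPM, from 1 to 18 UMIs per library.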

How the results depend on the processing

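No paired analysis was possible because the saline libraries are numbered 1 to 3 and the naloxone libraries 4 to 6, so the groups share no replicate number. Among alternative values of the results that answer a comparison, 304 stayed the same, 25 changed sign (all but 1 of them in the division by an Nr3c1 UMI), 7 moved and 1, a step in Nr3c1 level between classes whose test is not given, passed its threshold. The Fkbp5 log2 difference stayed above 0 in every glial class under all alternatives run, but in astrocyte-like nuclei it moved to 2.12 without naloxone library 5 (2.12 to 3.14 over all libraries left out). Taken within a sex, an alternative added after seeing the data, it was 0.50 for male nuclei of all classes. It was 3.17 for female and 1.43 for male microglia-like nuclei, from saline means of 67 and 235 CPM. The relation of Nr3c1 level to the Fkbp5 difference was 0.73 without a filter on low counts and 0.93 with nuclei gated singly.

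The female over male calls among members ranged from 0 to 3 when a library was left out, with 3 only without naloxone library 4. The sex by treatment difference changed sign in astrocyte-like (-0.24 to 1.57) and oligodendrocyte-like nuclei (-0.11 to 1.51) when a library was left out, the former without saline library 3 or naloxone library 4. Nr3c1 in endothelial-like over astrocyte-like nuclei was 0.19 with doublets kept and turned to -0.20 at Leiden resolution 0.5. Thinned shares gave -0.0724 for Nr3c1 in cholinergic over somatostatin nuclei, and for Nr3c2 -0.242 in astrocyte-like over Drd2 and -0.63 in microglia-like over cholinergic nuclei, the last also -0.11 with doublets kept and -0.03 to 0.34 with a library left out. Nr3c2 in Drd2 over Grm8 was -0.14 with at least 1000 genes, and in somatostatin over oligodendrocyte-like nuclei -0.04 to 0.12 with a library left out.

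Fkbp5 with over without an Nr3c1 UMI, which 5 libraries could not call since they allow no p below 0.0625, changed sign with doublets kept (endothelial-like 0.01, other GABA 0.15), at resolution 0.5 (Drd1 0.00, differentiating 0.27), with nuclei gated singly (Drd2 0.04, precursor-like -0.54) and thinned to 1000 UMIs (Drd1 0.08, Drd2 0.27, Grm8 0.35, microglia-like -0.09, precursor-like -0.26, oligodendrocyte-like 0.19). With a library left out it spanned -0.10 to 0.02 in Drd1, -0.54 to 0.34 in differentiating, -0.41 to 0.19 in endothelial-like, -0.20 to 0.13 in other GABA and -0.01 to 0.52 in precursor-like nuclei.

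Counts of all genes called varied widely, from 26 to 315 around 100 in astrocyte-like, 35 to 386 around 95 in oligodendrocyte-like, 21 to 500 around 90 in Drd2, 0 to 286 around 22 in Drd1, 1 to 77 around 28 in precursor-like and 2 to 46 around 15 in microglia-like nuclei. The cause of these changes was not tested. Endothelial-like and interneuron classes held too few UMIs of Fkbp5 and Hsd11b1 to resolve differences.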
